A study of Mus musculus with 13 samples.

Results

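The cytosolic ribosomal protein genes were followed in interfollicular keratinocytes, which form the epidermis outside the hair follicles, after FACS sorting from the skin of C57/BL6 mice. They were chosen by symbol from the table of raw read counts: every name made of Rpl, Rps or Rplp and a number, and Rpsa, without the Rps6k kinases and without names holding -ps. This gave 86 of 25746 genes. The rule itself used no measured value, but it was chosen with earlier results of these data known. They were 46 core proteins of the large subunit, 31 core proteins of the small subunit, 8 paralogs, which are close relatives of core proteins, and Rps19bp1. Rps19bp1 encodes a protein that binds Rps19 and is not itself a ribosomal protein. Core proteins with other names, such as Fau and Rack1, fell outside the choice.

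Libraries came from 4 groups. Il12rb2fl/fl mice, which carry floxed alleles of an interleukin-12 receptor subunit but lack Cre, are called floxed control here and contributed 3 untreated libraries and 3 taken at day 1 of topical Aldara, whose active compound is imiquimod at 5%. K14Cre/+ Il12rb2fl/fl mice, in which Cre is driven by the keratin promoter active in basal keratinocytes (Il12rb2-deleted), gave 4 untreated libraries and 3 Aldara libraries. Both genotypes thus carry the floxed alleles, and neither a vehicle cream nor Cre without floxed alleles was analysed here. Whether replicates were different animals is not in the labels, and p-values therefore reflect the spread among these libraries, which may be technical.

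A ribosome joins a large and a small subunit, each built on ribosomal RNA. Nearly every ribosomal protein is present once per ribosome, and assembly takes place in the nucleolus. Many ribosomal protein mRNAs in mammals begin with an unbroken run of pyrimidines, the terminal oligopyrimidine (TOP) tract, through which the mTOR pathway and the RNA-binding protein Larp1 control their translation. Their synthesis is known to accompany growth and division of cells, including those of the epidermis.

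The stretch around the transcription start is shown for members that the results below turn on, since the TOP tract lies there. The sequences are RefSeq promoter entries on GRCm38.p6, from 25 bases before to 25 bases after the annotated start, 5′ to 3′ on the gene's strand. Capitals mark the longest run of C and T where it reached at least 8 bases. The windows lie at chr7:4792940-4792989 (Rpl28, plus strand), chr11:114668555-114668604 (Rpl38, plus), chr7:141447626-141447675 (Rplp2, plus), chr10:23787185-23787234 (Rps12, minus), chr2:26910782-26910831 (Rpl7a, plus), chr17:27635220-27635269 (Rps10, minus), chr11:101442220-101442269 (Rpl27, plus), chr17:24720038-24720087 (Rps2, plus), chr17:46782632-46782681 (Rpl7l1, minus), chr3:90213624-90213673 (Rps27, minus) and chr5:115559442-115559491 (Rplp0, plus).
Rpl28: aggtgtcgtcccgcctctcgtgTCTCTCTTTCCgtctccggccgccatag
Rpl38: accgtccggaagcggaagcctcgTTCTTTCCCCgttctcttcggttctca
Rplp2: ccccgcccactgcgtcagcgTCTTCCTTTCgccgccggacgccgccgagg
Rps12: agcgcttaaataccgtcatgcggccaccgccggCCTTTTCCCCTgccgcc
Rpl7a: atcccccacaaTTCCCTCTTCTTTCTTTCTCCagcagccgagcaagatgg
Rps10: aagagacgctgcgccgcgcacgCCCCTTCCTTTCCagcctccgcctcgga
Rpl27: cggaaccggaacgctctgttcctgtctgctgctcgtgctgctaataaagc
Rps2: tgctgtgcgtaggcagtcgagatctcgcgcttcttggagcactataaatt
Rpl7l1: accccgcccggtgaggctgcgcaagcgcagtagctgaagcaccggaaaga
Rps27: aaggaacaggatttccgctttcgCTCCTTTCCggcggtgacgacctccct
Rplp0: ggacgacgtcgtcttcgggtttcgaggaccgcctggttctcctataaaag

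Among the members called higher after Aldara and shown here, Rpl28, Rpl38, Rplp2, Rps12, Rpl7a and Rps10 held such a run. Rpl27, Rps2 and Rpl7l1 did not. The windows shown are a selection. Of called members not shown, Rpl18 held such a run, as did Rpl35a in some of its entries. Rpl36al, Rpsa, Rps21, Rpl12, Rpl10 and Rps19bp1 did not. Such a run was present in 33 of the 66 members with a promoter entry. Whether it went with the call was not tested. Rps27 held a run of 9 bases in its window and Rplp0 none, and neither was called. In the Rps2 and Rplp0 windows the letters TATAAA lie after the annotated start. Which start the cells used was not tested, so a window without a run does not show that the mRNA lacks a TOP tract. Of the 86 members, 66 had a promoter entry, and some had several, 78 in all; Rpl29 had none. A run of at least 8 bases in this window was present in 34 of 78 member entries (43.6%) and in 3923 of 20359 entries of all genes in the count table (19.3%). The longest, in Rpl7a, had 21 bases. Over the whole 300-base entries and on both strands, the ETS letters CCGGAAG were found in 34.6% of member entries against 11.8% of all entries, and the YY1 letters AAGATGGC in 10.3% against 3.09%. The SP1 letters GGGCGG stood in 60.3% against 47.5%, the TATA letters TATAAA in 8.97% against 12.2%, the E-box CACGTG in 10.3% against 8.02%, and the CRE letters TGACGTCA in 6.41% against 2.30%. These are descriptions of sequence, and a match is not a measured binding site.

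Depth ranged from 5830034 to 22232478 counts per library. Untreated libraries stood apart in 3 cases, by the share of their counts in Gm10800, a predicted gene on chromosome 2. This share was 14.2% in floxed control untreated library 2, 5.21% in Il12rb2-deleted untreated library 1 and 10.3% in Il12rb2-deleted untreated library 2, and at most 2.22% in the other 10 libraries. No Aldara library was among the 3, so the counts of called members in each Aldara comparison are also given without them. Such fits rest on fewer untreated libraries in both genotypes. The targeted gene Il12rb2 was at 17.1, 78.8 and 52.7 CPM (counts scaled to library size and TMM factor) in floxed control untreated libraries and in the Il12rb2-deleted untreated libraries the values were 22.7, 8.52, 25.6 and 19.0 CPM, so the groups overlapped. After Aldara it was at 1.98, 8.14 and 2.68 CPM in floxed control and at 0, 1.07 and 1.64 CPM in Il12rb2-deleted libraries. Il12rb2 was not called between genotypes in either condition (edgeR, adjusted p = 1 untreated and 0.982 after Aldara), and the counts do not show which part of the gene they come from.

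Ribosomal protein transcripts were abundant in every library. The 83 members that passed the filter on low counts held 4.07%, 2.47% and 3.45% of all counts in the floxed control untreated libraries, and 3.71%, 2.90%, 4.40% and 5.09% in the Il12rb2-deleted untreated libraries. After Aldara they held 4.89%, 3.88% and 3.62% in floxed control and 6.82%, 5.75% and 4.89% in Il12rb2-deleted libraries. The untreated and Aldara ranges overlapped within both genotypes. Il12rb2-deleted Aldara library 1 was highest, and floxed control untreated library 2, which is rich in Gm10800, was lowest. The group means were 3.33% ± 0.807 (SD, n = 3) and 4.13% ± 0.671 (SD, n = 3) in floxed control before and after Aldara, and 4.03% ± 0.938 (SD, n = 4) and 5.82% ± 0.967 (SD, n = 3) in Il12rb2-deleted. The widest exact (Clopper-Pearson) 95% interval, for the 6.82%, ran from 6.804% to 6.836%, and such intervals cover counting error only. With Gm10800 taken out of the total, the same means were 3.47%, 4.16%, 4.16% and 5.89%. In bulk samples, fewer cells of a type and less RNA per cell cannot be told apart.

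**Figure D1:**
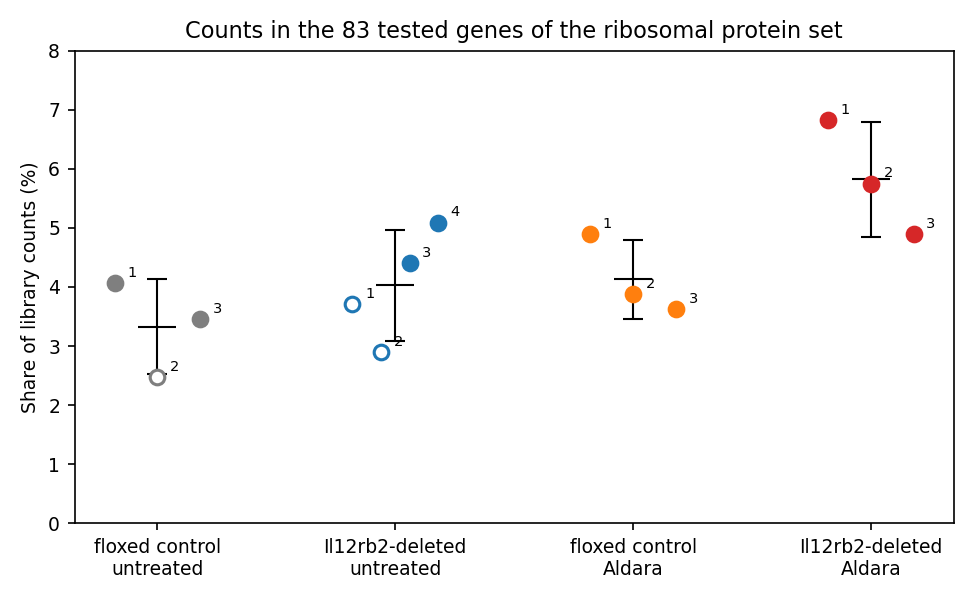
Share of each library's counts (vertical axis, percent) in the 83 tested genes, by group. Points are libraries, numbered by replicate, with open points for the 3 libraries rich in Gm10800, and bars give the mean and SD. The Il12rb2-deleted Aldara libraries lie between 4.89% and 6.82%, and the untreated and Aldara libraries of each genotype overlap.

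The ratio of large to small subunit counts lay between 1.41 and 1.73 in all libraries, with means of 1.57 ± 0.0551 (SD, n = 3) in floxed control untreated, 1.61 ± 0.130 (SD, n = 4) in Il12rb2-deleted untreated, 1.48 ± 0.0872 (SD, n = 3) in floxed control Aldara and 1.45 ± 0.0666 (SD, n = 3) in Il12rb2-deleted Aldara libraries. Its highest values, 1.71 and 1.73, were in Il12rb2-deleted untreated libraries 1 and 2, both rich in Gm10800. Much of the spread of core members was shared by the whole set within a library. The SD of log2 CPM between libraries of a group had a median of 0.35 over the 77 core members, and of 0.17 after the library's mean over the core members was subtracted. It was 0.31 over 1586 genes in the same range of expression.

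Core members differed widely in level when counts were scaled by transcript length. The highest mean levels were those of Rplp0, the base of the ribosomal stalk, at 1810 CPM per kilobase, Rpl32 at 1650, Rpl13 at 1640 and Rpl4, which lines the exit tunnel, at 1550. The lowest were Rps15a at 63.2, Rpl22 at 97.0, Rps20 at 128 and Rpl27a at 176 CPM per kilobase, against a core median of 557. These 4 low values rest on the annotated transcripts used, which were 5179 bases for Rps15a, 2051 for Rpl22, 3706 for Rps20 and 1158 for Rpl27a. An over-long annotated transcript lowers a per-length level, and which transcript the cells used was not tested. The length rule was replaced after the levels under an earlier rule had been seen. Under that earlier rule Rpl32 stood at 941 CPM per kilobase and rank 13, Rps27 took its place among the 4 highest, Rpl18 at 166 CPM per kilobase took the place of Rpl27a among the 4 lowest, and 19 core members had another length. Neighbours in the order overlapped: Rpl32 ranged from 857 to 2750 CPM per kilobase over the 13 libraries, and Rplp0 from 1100 to 2870.

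The question of how Aldara acts on the set was first asked over both genotypes, as the mean of the 2 Aldara effects. Of 83 tested members, 21 were called higher and 0 lower (edgeR, adjusted p under 0.05), against 13% of all 16051 tested genes called higher and 11.9% called lower. The 21 were 10 large subunit proteins, 8 small subunit proteins, the paralogs Rpl7l1 and Rpl36al, and Rps19bp1. The median log2 change was 0.47 over the members and -0.15 over all genes tested, and 81 of 83 members had a positive value. Without the 3 libraries rich in Gm10800, 3 members were called higher, Rps19bp1, Rpl29 and Rpl7l1, against 9.03% of 15863 tested genes. The median log2 change then was 0.24 over the members and 0.08 over all genes, and 74 of 83 members had a positive value. The part of these 3 libraries in the result was not tested further.

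Rps19bp1 had the smallest p. Its level was 22.8, 21.2 and 24.8 CPM in floxed control untreated libraries and 12.8, 19.8, 17.7 and 24.6 CPM in Il12rb2-deleted untreated libraries. After Aldara it was 37.9, 39.6 and 51.8 CPM in floxed control and 64.5, 55.6 and 33.7 CPM in Il12rb2-deleted libraries. Every Aldara value lay above every untreated value, and the log2 change was 1.18 ± 0.21 (SE; edgeR, adjusted p = 0.000791).

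Rpl7l1, a paralog of Rpl7 with a role in ribosome assembly, was the only other member whose Aldara and untreated values did not overlap. It was at 94.1, 77.5 and 86.8 CPM in floxed control untreated and the Il12rb2-deleted untreated values were 81.2, 84.4, 110 and 111 CPM. After Aldara it was at 172, 145 and 114 CPM in floxed control and at 149, 176 and 152 CPM in Il12rb2-deleted libraries. The log2 change was 0.73 ± 0.15 (SE; edgeR, adjusted p = 0.00207). Such separation, with all Aldara values on the upper side, held for 2 of 83 members (2.41%) and for 1009 of 16051 genes (6.29%).

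Among large subunit proteins, Rpl29, also known as a heparin-binding protein, had the smallest p. Its level was 191, 161 and 167 CPM in floxed control untreated, 195, 196, 195 and 266 CPM in Il12rb2-deleted untreated, 290, 279 and 203 CPM in floxed control Aldara, and 442, 366 and 363 CPM in Il12rb2-deleted Aldara libraries. Floxed control Aldara library 3 lay below Il12rb2-deleted untreated library 4, and the other Aldara libraries lay above all untreated ones. The log2 change was 0.72 ± 0.15 (SE; edgeR, adjusted p = 0.00198).

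Rpl27 was at 156, 102 and 134 CPM in floxed control untreated, 126, 133, 195 and 252 CPM in Il12rb2-deleted untreated, 283, 236 and 192 CPM in floxed control Aldara and 462, 323 and 230 CPM in Il12rb2-deleted Aldara libraries. Its log2 change was 0.90 ± 0.21 (SE; edgeR, adjusted p = 0.0056). Il12rb2-deleted untreated libraries 3 and 4 reached into the Aldara range. Rpl38, known for a role in translating Hox mRNAs, had the largest change of any core member, 1.00 ± 0.28 (SE; edgeR, adjusted p = 0.0167). Its untreated values ran from 44.9 to 136 CPM and its Aldara values from 107 to 313 CPM, with the highest in Il12rb2-deleted Aldara library 1. Rpl28 changed by 0.65 ± 0.17 on the log2 scale (SE; edgeR, adjusted p = 0.011). Calls for Rpl27, Rpl28 and Rpl38 were lost without the 3 libraries rich in Gm10800, at log2 changes that kept their sign. That of Rpl38 was also lost without floxed control untreated library 2 or Il12rb2-deleted Aldara library 1.

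Among small subunit proteins, Rps2, at the mRNA entry side, changed by 0.62 ± 0.17, Rpsa, also known as a laminin-binding protein, by 0.63 ± 0.19, and Rps12 by 0.73 ± 0.22 (log2, SE; edgeR, adjusted p = 0.0137, 0.0219 and 0.0237). The paralog Rpl36al changed by 0.75 ± 0.21 (log2, SE; edgeR, adjusted p = 0.0151). These 4 calls were lost without the 3 libraries rich in Gm10800, at positive log2 changes. Those of Rpsa and Rps12 were each lost in 5 of 20 alternative fits.

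Further members were called beyond the 12 that the naming rule takes by p, and all but Rpl10 and Rpl12 of those named here were chosen after their values were seen: Rpl7a, Rps21, Rps10, Rpl18, Rpl12, Rpl35a and Rpl10. Their log2 changes ran from 0.48 for Rpl10, which helps form the peptidyl transferase region, to 0.90 for Rps21. Each of these calls was lost without the 3 libraries rich in Gm10800, and in other fits too. Rpl10 was lost in 13 of 20 alternative fits, and Rpl12 and Rpl35a in 9 each. Rpl14 (adjusted p = 0.0503) and Rpl8 (0.0504) just missed the threshold in edgeR.

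**Figure D2:**
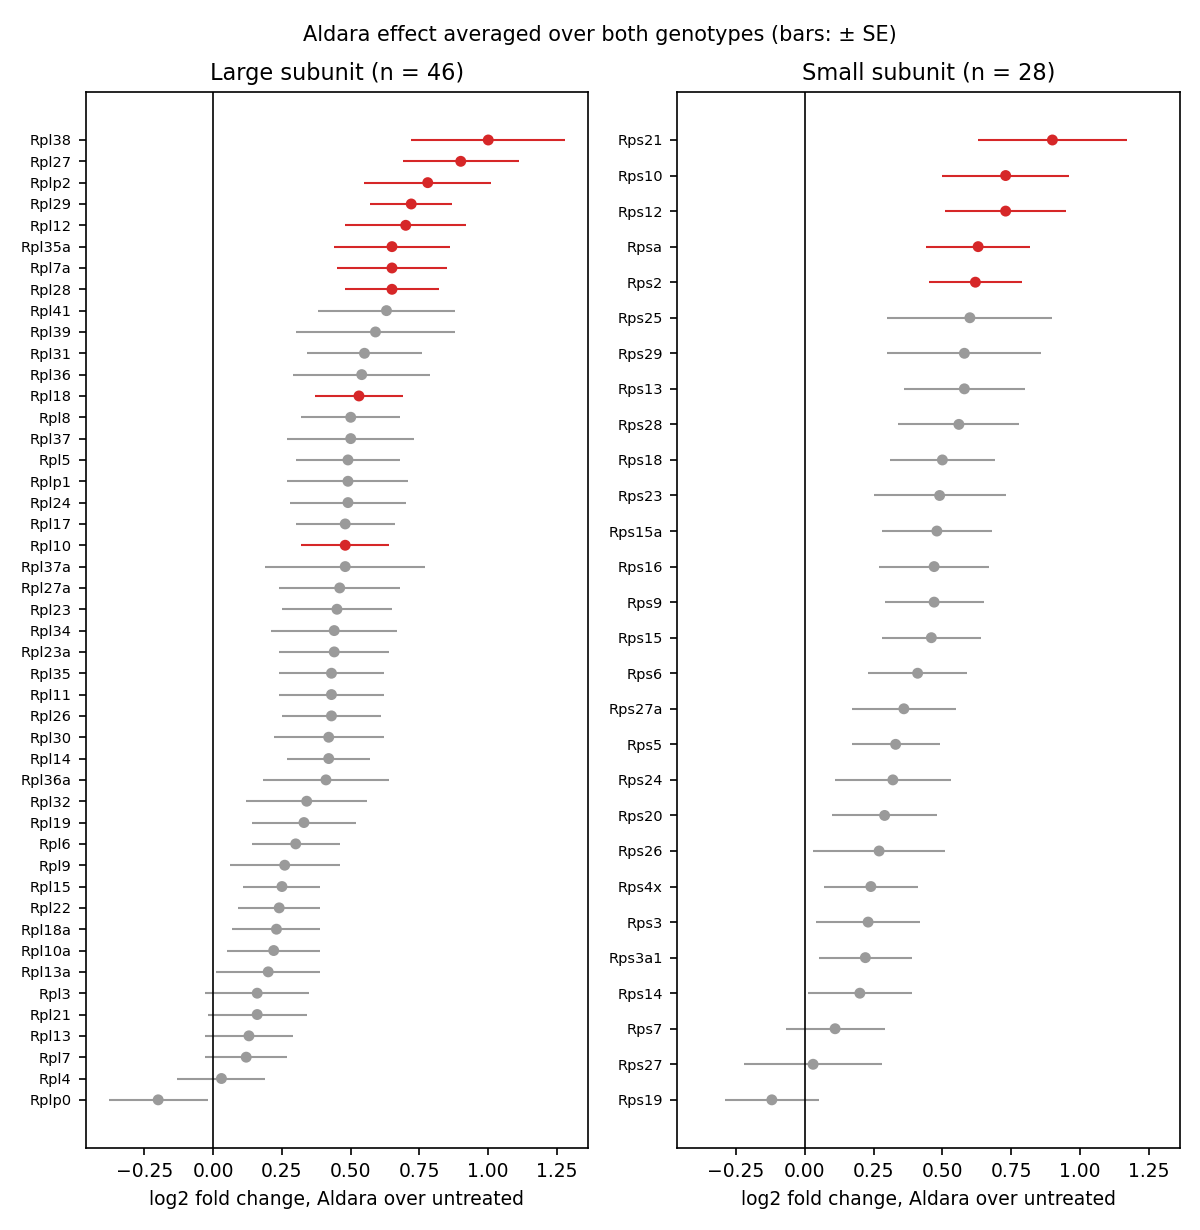
Log2 fold change of 74 core members, Aldara over untreated, averaged over both genotypes (horizontal axis, bars ± SE), with large subunit proteins left and small subunit proteins right. Red points were called by edgeR at an adjusted p under 0.05, grey points were not, and all but Rplp0 and Rps19 lie at or above 0.

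Within the ribosomal stalk, which recruits elongation factors, members differed in value. Rplp2 rose by 0.78 ± 0.23 on the log2 scale and Rpl12 by 0.70 ± 0.22 (SE; edgeR, adjusted p = 0.0229 and 0.0328). Rplp1 had a value of 0.49 ± 0.22 and Rplp0 of -0.20 ± 0.18 (SE; edgeR, adjusted p = 0.119 and 0.47), so neither passed. Rplp0 was at 2150, 1860 and 2690 CPM in floxed control untreated and the Il12rb2-deleted untreated values were 3890, 2420, 2450 and 3340 CPM. It was at 2140, 2340 and 1490 CPM in floxed control Aldara and at 2370, 2640 and 2680 CPM in Il12rb2-deleted Aldara libraries. The untreated and Aldara ranges of Rplp0 overlapped within both genotypes, while the floxed control Aldara values lay below those of both Il12rb2-deleted groups. Without the 3 libraries rich in Gm10800, 0 of the 4 stalk proteins were called, and their median log2 change was 0.40. The difference between stalk members was not tested.

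Rpl5 and Rpl11, which bind a small ribosomal RNA and, when free, the p53 regulator Mdm2, had log2 values of 0.49 ± 0.19 and 0.43 ± 0.19 (SE; edgeR, adjusted p = 0.0721 and 0.107). Rps6, the target of S6 kinase, had 0.41 ± 0.18, and Rps27a, which is made as a fusion with ubiquitin, 0.36 ± 0.19 (adjusted p = 0.127 and 0.178 by edgeR). Rpl3, Rpl13a, Rps3 and Rps27 had values of 0.16, 0.20, 0.23 and 0.03. Rpl22 and its paralog Rpl22l1 had 0.24 ± 0.15 and 0.29 ± 0.26 (SE; edgeR, adjusted p = 0.268 and 0.468). None of these passed. The paralogs Rpl3l, Rpl10l and Rpl39l had too few counts to be tested, and Rps27rt was tested at about 1 CPM, with an SE of 0.75.

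The heat map of log2 CPM shows how far these values were a matter of whole libraries. Relative to the floxed control untreated mean, the mean log2 CPM of the 83 tested members was 0.25, -0.29 and 0.05 in floxed control untreated libraries and 0.18, -0.05, 0.45 and 0.80 in Il12rb2-deleted untreated libraries. It was 0.67, 0.42 and 0.02 in floxed control Aldara libraries and 1.18, 0.87 and 0.56 in Il12rb2-deleted Aldara libraries. Il12rb2-deleted untreated library 4 thus lay above all 3 floxed control Aldara libraries. Il12rb2-deleted Aldara library 1 was highest. Over both genotypes, 9 members were called without it, and likewise 9 without floxed control untreated library 2 or floxed control Aldara library 1. The count was 12 without floxed control untreated library 3, 13 without Il12rb2-deleted untreated library 1, and 34 without Il12rb2-deleted untreated library 4. The share of all tested genes called higher was 11.1%, 9.88% and 9.6% in the first 3 of these fits, and 10%, 11.3% and 12.8% in the others.

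**Figure D3:**
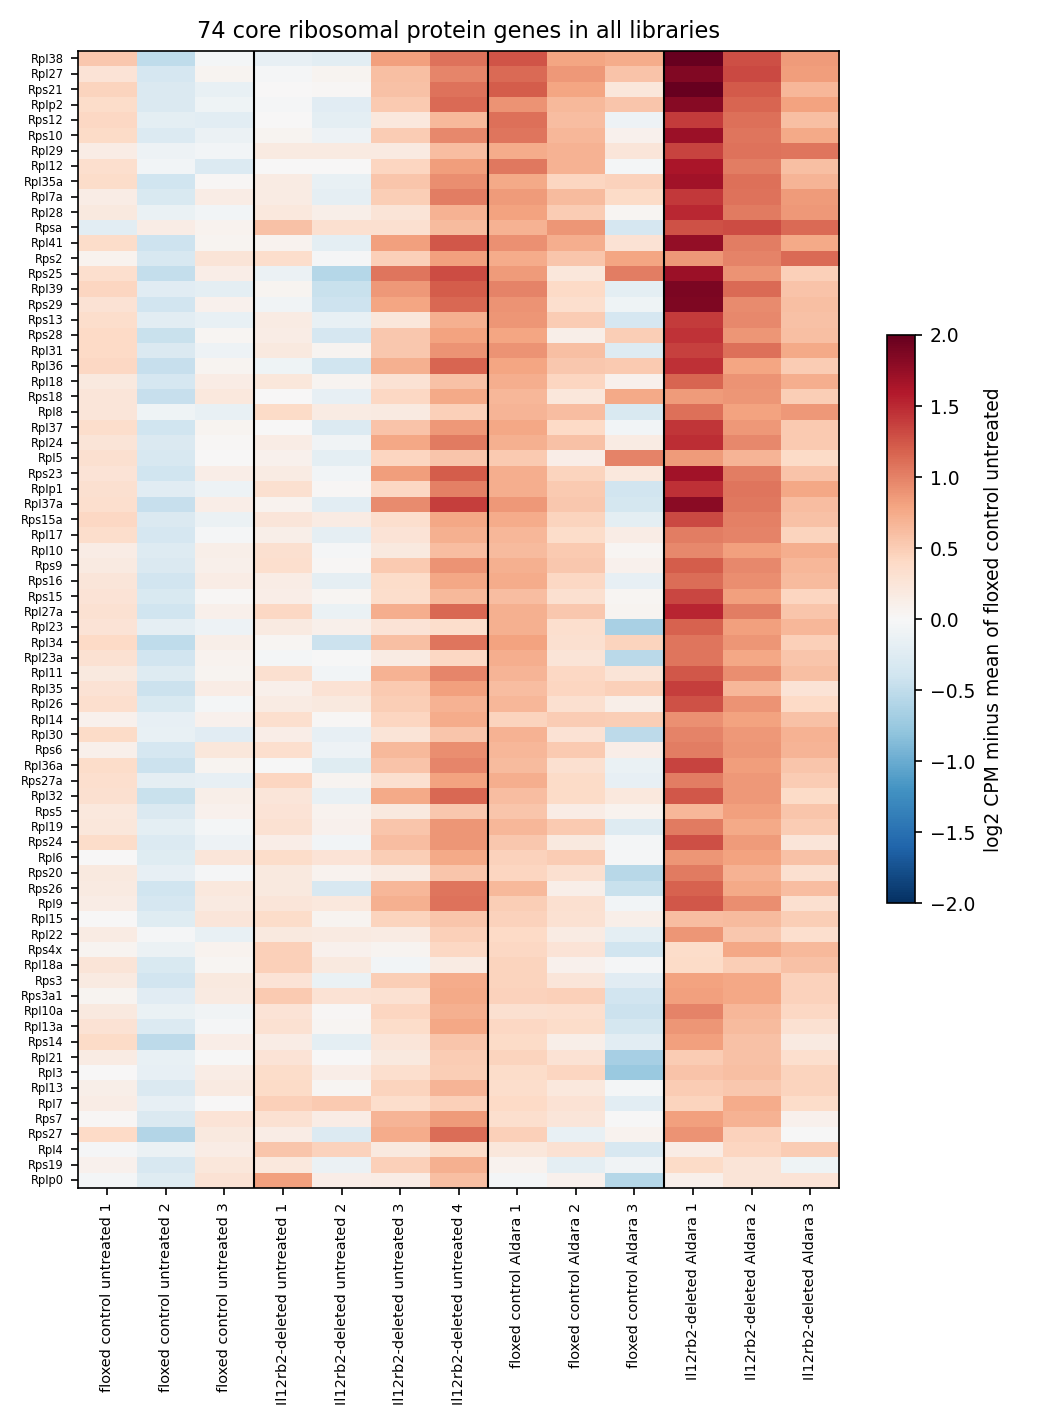
Log2 CPM of 74 core members (rows, ordered by Aldara effect) in the 13 libraries (columns), minus the gene's mean in floxed control untreated libraries, with red for higher and blue for lower. Most rows share their library's colour, deepest in Il12rb2-deleted Aldara library 1 and pale in floxed control Aldara library 3.

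In floxed control mice alone, 0 of 83 members were called in either direction by edgeR, against 4.15% of all genes called higher and 2.9% called lower. At an unadjusted p under 0.05, 10 members (12%) were higher and 0 lower, against 11.5% of all genes higher and 9.8% lower. DESeq2 called 2 members and limma voom 1, against 1059 and 866 genes called higher (6.6% and 5.4%). The smallest p was that of Rpl7l1, with a log2 value of 0.74 ± 0.22 (SE; edgeR, adjusted p = 0.0515), followed by Rps19bp1 at 0.91 ± 0.30 (adjusted p = 0.0848 by edgeR), Rpl27 at 0.86, Rps2 at 0.68 and Rpl29 at 0.57. The median log2 change was 0.40 over the members and -0.13 over all genes, and 0.26 over the members without the 3 libraries rich in Gm10800, where 0 members and 1.05% of all genes were called higher.

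In Il12rb2-deleted mice, 6 of 83 members were called higher and 0 lower, against 7.81% and 7.69% of all genes. Among the 6 were Rps19bp1 (log2 change 1.45 ± 0.28 SE; edgeR, adjusted p = 0.0033), Rpl29 (0.87), Rpl7l1 (0.72), Rpl28 (0.83) and Rpl27 (0.94). The median log2 change was 0.50 over the members and -0.09 over all genes. Without the 3 libraries rich in Gm10800, 0 members were called by edgeR, against 4.41% of 15863 genes called higher, and Rps19bp1 had an adjusted p of 0.0502. The median log2 change was then 0.23 over the members and 0.09 over all genes. The count lay between 2 and 15 when single libraries were left out, with 2 without Il12rb2-deleted untreated library 1 or Il12rb2-deleted Aldara library 2, and 15 without Il12rb2-deleted untreated library 4. All-gene shares called higher in these 3 fits were 5.08%, 4.84% and 7.02%. Both genotypes' Aldara effects use their own untreated libraries, and a call in Il12rb2-deleted mice that is missing in floxed control mice does not by itself show a difference between them.

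That difference was tested as the interaction of deletion and Aldara. No member was called by edgeR in either direction, against 0% of all genes, 0 members had an unadjusted p under 0.05, and DESeq2 and limma voom called 0 members. The median log2 difference was 0.14 over the members and 0.01 over all genes, and 60 of 83 members were positive. Without the 3 libraries rich in Gm10800, 38 of 83 were positive. The medians were then -0.03 over large and -0.01 over small subunit core proteins. The smallest p values belonged to Rps19bp1 (0.54 ± 0.41), Rpl23a (0.46), Rpl23 (0.45), Rpl30 (0.43) and Rpl29 (0.30 ± 0.29), all as log2 differences with an adjusted p of 1 in edgeR.

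The effect of Il12rb2 deletion itself was compared within each condition. In untreated mice 0 members were called, against 0% of all genes called in either direction by edgeR. At an unadjusted p under 0.05, 2 members (2.41%) were higher and 0 lower, against 2.47% of all genes higher and 1.26% lower. DESeq2 and limma voom called 0 members. The median log2 difference, Il12rb2-deleted over floxed control, was 0.39 over the members and -0.05 over all genes, and 82 of 83 members were on the positive side. Without the 3 libraries rich in Gm10800, 81 of 83 were positive. The medians were then 0.55 over large and 0.49 over small subunit core proteins, against -0.02 over all genes. Rpl7, Rpl6, Rpl9, Rps7 and Rpl11 had the smallest p, with log2 values of 0.45, 0.47, 0.59, 0.50 and 0.52.

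After Aldara 0 members were called by edgeR in either direction, again against 0% of all genes, and 11 (13.3%) were higher at an unadjusted p under 0.05, against 1.63% of all genes higher and 2.67% lower. DESeq2 and limma voom called 0 members. The median log2 difference was 0.50 over the members and -0.02 over all genes, and all 83 members were positive. Rpl29 had 0.60, Rpl28 0.68, Rpsa 0.74, Rplp1 0.76 and Rpl10a 0.60, all with an adjusted p of 0.982 in edgeR. Rpsa was at 756, 864 and 371 CPM in floxed control Aldara and at 1130, 1160 and 1030 CPM in Il12rb2-deleted Aldara libraries. The 2 groups did not overlap for Rpsa, and floxed control Aldara library 3 was far below the other Aldara libraries. Members in a library move together, so the shared sign of 83 members is not 83 separate observations. The mean share of counts in mitochondrial transcripts was lower in Il12rb2-deleted libraries. After Aldara it was 11.4% ± 4.38 (SD, n = 3) in floxed control and 5.47% ± 1.71 (SD, n = 3) in Il12rb2-deleted libraries, with ranges that did not overlap. Untreated, it was 10.8% ± 1.36 (SD, n = 3) and 6.54% ± 2.41 (SD, n = 4), with ranges that overlapped. None of 12 tested mitochondrial transcripts was called between genotypes in either condition by edgeR. The part of the mitochondrial share in the ribosomal protein values was not tested.

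Genes that build ribosomes but lie outside the choice were read from lists, which were chosen with earlier results of these data known. Of 43 tested genes for RNA polymerase I and ribosome assembly, 38 were called higher and 0 lower over both genotypes, with a median log2 change of 0.99. Of all 16051 tested genes, 13% were called higher and 11.9% lower. Examples were Nolc1 (1.57 ± 0.15), a nucleolar chaperone, Nop2 (1.54 ± 0.18), an RNA methyltransferase, and Ncl (1.32 ± 0.16), the nucleolin gene (log2, SE; edgeR, adjusted p = 2.06e-05, 4.54e-05 and 5.94e-05). Of 78 mitochondrial ribosomal protein genes, 65 were called higher and 0 lower, with a median of 0.84, led among those named by Mrpl12 at 1.87 ± 0.20 (SE; edgeR, adjusted p = 3.29e-05). Without the 3 libraries rich in Gm10800, 31 of 43 and 38 of 78 were called higher, against 9.03% of all genes. The medians were then 0.83 and 0.66. The difference between these lists and the ribosomal proteins was not tested.

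Of 19 tested translation factors and other TOP mRNAs, 9 were called higher and 0 lower, with a median of 0.36. Without the 3 libraries rich in Gm10800, 6 were called higher, against 9.03% of all genes. Npm1, the nucleophosmin gene, had 1.13 ± 0.15 (SE; edgeR, adjusted p = 0.000102). Rack1, a scaffold on the small subunit that lies outside the choice, was called at 0.82 ± 0.16 (SE; edgeR, adjusted p = 0.00165). Of 20 regulators of ribosomal protein synthesis, 4 were called higher and 1 lower, against 13% and 11.9% of all genes tested. Among the 4 was Eif4ebp1, an inhibitor of cap-dependent translation, at 1.18. The 1 called lower was Sesn2, an inhibitor of mTOR, at -1.36. Of 10 tested p53 target and nucleolar stress genes, 0 were called higher and 2 lower, Mdm2 at -1.47 and Cdkn1a at -0.89. The same shares of all genes apply here, and counts in these short lists were not tested against them. None of 12 tested mitochondrial transcripts was called.

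**Figure D4:**
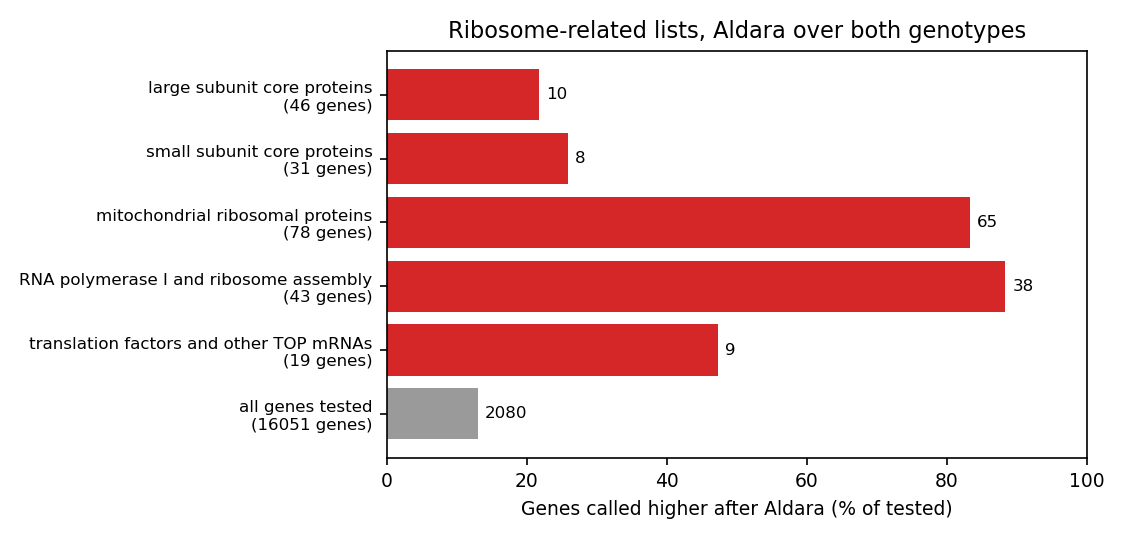
Share of tested genes called higher after Aldara over both genotypes (horizontal axis, percent, edgeR adjusted p under 0.05), with the number called beside each bar. The large and small subunit bars, 10 and 8 genes, are shorter than those of the mitochondrial ribosomal proteins, with 65, and of ribosome assembly, with 38.

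Markers of the sorted cells and of other skin cells moved with Aldara too. Over both genotypes, 13% of all genes were called higher and 11.9% lower. Of 13 keratinocyte markers, 10 were called lower and 0 higher. Their summed level ran from 31700 to 80600 CPM in untreated and from 15200 to 25800 CPM in Aldara libraries. Of 12 sebaceous gland markers, 10 were called higher and 0 lower, with summed levels of 467 to 2640 CPM untreated and 4960 to 9280 CPM after Aldara. Of 11 fibroblast markers, 8 were called lower, from 1120 to 2710 CPM untreated to 226 to 538 CPM after Aldara. Of 11 endothelial and mural markers, 4 were called lower and 0 higher, and of 13 hair follicle markers 3 lower and 1 higher. Of 7 tested T cell markers 2 were lower, and of 10 tested Langerhans cell and macrophage markers 1 was lower. Of 5 tested neutrophil markers 1 was higher and 1 lower. None of 10 melanocyte and Merkel cell markers was called. Keratinocyte markers were at 0 in no library, and 1 sebaceous marker was at 0 in some library. The part of these shifts in the ribosomal protein values was not tested.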

How the data were processed

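Raw read counts per gene were deposited by the authors in 1 table with 13 library columns, not normalized. Per the labels' protocols, the Smart-seq2 method was used, which marks neither strand nor molecules, with single-end reads of 100 bases. STAR, featureCounts of Subread and GRCm38 are named in the submitters' processing notes, while how multi-mapping reads were handled is not given in the sources used here, so counts of members with near-identical copies are uncertain.

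Genes were kept by filterByExpr at a minimum count of 10 (16051 genes), scaled by TMM, and tested by edgeR 4.0.16 (R 4.3.3) quasi-likelihood F tests with 1 coefficient per group, Benjamini-Hochberg adjusted over all genes. SE was taken as the size of the log2 change over the root of its F value. DESeq2 1.42.0 and limma 3.58.1 were alternatives. The main edgeR fit was tested on simulated counts with known Aldara changes. Those counts were drawn gene by gene from the fit's own model, without shifts shared by a whole library. The simulation therefore does not cover the shared library shifts seen in the members. The alternatives and the descriptive steps were not tested in this way. The members, lists and naming rule were chosen with earlier results of these data known. The rule names up to 12 called members per comparison by p, or the 5 smallest p where fewer than 3 were called, members fixed for their role, and the 4 highest and 4 lowest core members per length.

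For transcript length, 2 rules were tried. The first took the longest transcript of the best APPRIS class in GENCODE M21. It was replaced, after its levels had been seen and several lengths looked too long, by the transcript matched to a curated RefSeq mRNA with the best support, and the shortest among equals. Both are kept in the results. Counts carry counting error as well as the spread between libraries. Some members are counted in totals but not reported here by name or drawn in the plots by gene.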

Additional observations from a re-analysis of the deposited data

Results flagged for a closer look

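In the group of 4 libraries, 55 values of members and shares were examined for a library far from the others, and chance flags about 1 in 20. Of these, 3 stood apart. Rpl29 was at 266 CPM in Il12rb2-deleted untreated library 4, against 195 to 196 CPM in the other 3, and Rpl22 was at 230 CPM there, against 184 to 189 CPM. Rpl3l was at 1.19 CPM in Il12rb2-deleted untreated library 2, against 0 to 0.0778 CPM, a value that rests on 6 counts.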

How the results depend on the processing

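The number of members called higher after Aldara depended on the libraries used. In floxed control mice it was 0 with edgeR, 2 with DESeq2, 1 with limma voom, and 0 to 2 with single libraries left out, against 4.15%, 6.6%, 5.4% and 0.626% to 4.32% of all genes. In Il12rb2-deleted mice it was 6, and 16 with DESeq2, 16 with the replicate block, 0 without the 3 libraries rich in Gm10800, and 2 to 15 with single libraries left out, against 7.81%, 9.79%, 6.09%, 4.41% and 4.84% to 8.06% of all genes. Over both genotypes it was 21, and 35 with the replicate block, 3 without the 3 libraries, and 9 to 34 with single libraries left out, the highest without Il12rb2-deleted untreated library 4, against 13%, 11.8%, 9.03% and 9.6% to 13% of all genes. Replicate number 4 occurs only in the Il12rb2-deleted untreated group. The replicate block therefore takes that library out of the comparison, and the block counts do not test pairing. Of the 21 calls, 18 were lost in at least 1 alternative, and Rps19bp1, Rpl29 and Rpl7l1 were kept in all 20. The causes were not tested. The median log2 change over both genotypes was 0.37 to 0.55 with single libraries left out and 0.24 without the 3. Among named members, signs turned in the following values over both genotypes, and turns in other members are not listed. Without the 3 libraries, Rps7 was -0.09, Rpl13 -0.03, Rps27 -0.30, Rps14 -0.01, Rpl22l1 -0.02 and Rps27rt -0.33, and with DESeq2 Rps27rt was -0.01. With single libraries left out, Rpl4 ran from -0.03 to 0.11, Rps27 from -0.10 to 0.16 and Rps27rt from -0.12 to 0.19. Same-numbered replicates of different groups correlated at -0.16 to 0.42 in their deviations, over 0.1 in 5 of 18 pairs. Pairs with different numbers were not compared, so these values do not decide whether the numbers pair the samples. The order of levels per length was also computed under the first length rule: the core median was 530 in place of 557 CPM per kilobase, and the Spearman correlation of length with the Aldara change over both genotypes was -0.31 under the rule used and -0.30 under the first, as a description across 77 genes that are not independent.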
